A study of Saccharomyces cerevisiae with 8 samples.

Results

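Aminoacyl-tRNA synthetases join each amino acid to its transfer RNA, and 36 genes for these enzymes were followed in 4 strains of the yeast *Saccharomyces cerevisiae*. The genes were chosen by name and function, and 22 encode enzymes of the cytosol or enzymes shared between cytosol and mitochondria and 14 encode mitochondrial enzymes. They are 36 of the 6103 lines with a gene ID in the table of all genes, and all 36 passed the filter on low values that left 5628 genes for testing. The strains were *sin3∆*, *srb2∆* and *mig1∆*, each a derivative of ScY01a in which a *Kan*MX cassette took the place of the whole reading frame, and the wild-type ScY01a itself, an industrial haploid of mating type a. All grew at 30°C for 10 h in YP medium with 200 g/L glucose, and 2 RNA-seq libraries were made per strain, 8 in all. The paper speaks of exponential cells, but its methods tie the early logarithmic phase at 10 h to its cultures at high temperature. At 30°C it reports slower fermentation in *srb2∆* and faster fermentation in *sin3∆* than in the wild type, with no significant effect of either deletion on growth. The growth stage of each strain at harvest was not given, so a difference in stage cannot be told apart from the deletion. Sin3p holds histone deacetylase complexes together, Srb2p belongs to the head of Mediator, which links activators to RNA polymerase II, and Mig1p is a zinc finger protein that represses genes in glucose. How many transformants stood for a deletion was not given in the sources used here, nor whether the 2 libraries of a strain came from separate cultures, so that p-values measure only the spread between these libraries.

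Yeast makes protein in the cytosol and, for a handful of respiratory chain subunits, inside the mitochondria, and each compartment charges its own set of transfer RNAs. Most amino acids have a cytosolic and a mitochondrial enzyme from separate nuclear genes, while a few genes supply both places from alternative start sites. Transcripts for the cytosolic enzymes are known to follow the demand for protein synthesis and the supply of amino acids, and some are targets of Gcn4p, the activator of the amino acid starvation response. The mitochondrial enzymes belong to the machinery of respiration, which glucose holds low.

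The deposited values are listed as RPKM, in which reads are divided by gene length and by library size, so that levels can be compared between genes per unit of length. They summed to between 862336 and 1150769 per library. Read counts were not used, and the depth behind a value is unknown. *SIN3*, *SRB2* and *MIG1* were at 0 in the 2 libraries of the strain that lacks them and between 17.1 and 84.2 RPKM in the others. The 6 a-cell markers summed to between 259.7 and 287.9 RPKM in *sin3∆*, 538 and 626 RPKM in *srb2∆*, 758 and 794 RPKM in *mig1∆*, and 803 and 920.4 RPKM in the wild type. By the rule for calls given below, 4 of the 4 that passed the filter were called lower in *sin3∆*, beside 12.2% of all tested genes. In *srb2∆* and in *mig1∆*, 0 of these 4 were called, beside 14.9% of all tested genes called lower in *srb2∆* and 0.657% in *mig1∆*. At an adjusted p of at most 0.05 by limma and any fold, 3 of the 4 passed in *srb2∆* and 0 in *mig1∆*. At that rule 36.3% of tested genes were lower in *srb2∆* and 4.71% in *mig1∆*. These markers were thus called lower in *sin3∆* alone, and their part in the synthetase values was not tested. The 3 alpha-cell markers summed to between 15.6 and 25.5 RPKM per library, although the a-factor genes *MFA1* and *MFA2* were listed at 0 in all 8 libraries. Of the 2 alpha-cell markers that passed the filter, *MF(ALPHA)1* was called lower in *sin3∆* and *srb2∆*, at log2 fold changes of -1.45 and -2.01. It had at most 4.41 RPKM in any library. Genes for cytosolic ribosomal proteins, 137 in the table, took 41.1% of the summed RPKM in both *sin3∆* libraries, 42.8% and 42.0% in *srb2∆*, 24.1% and 25.9% in *mig1∆*, and 19.3% and 22.5% in the wild type. This share was highest in *sin3∆* and *srb2∆*, where most cytosolic synthetase genes were higher and most mitochondrial ones lower than in the wild type. Its part in the synthetase values was not tested. Between the 2 libraries of a strain, the 36 genes differed by a median of 0.07 on the log2 scale in *sin3∆*, 0.03 in *srb2∆*, 0.07 in *mig1∆* and 0.14 in the wild type. RNA was taken from whole cultures, so a change in every cell and a change in a part of the cells cannot be told apart.

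The 2 classes lay at different levels in every strain, and the distance between them was larger in *sin3∆* and *srb2∆* than in the wild type. The median cytosolic gene stood at 236 and 244 RPKM in *sin3∆*, 245 and 244 RPKM in *srb2∆*, 113 and 117 RPKM in *mig1∆*, and 108 and 104 RPKM in the wild type. The median mitochondrial gene stood at 14.2 and 13.9 RPKM in *sin3∆*, 11.2 and 11.7 RPKM in *srb2∆*, 25.4 and 24.9 RPKM in *mig1∆*, and 19.9 and 18.8 RPKM in the wild type. The cytosolic median was thus higher, and the mitochondrial median lower, in the *sin3∆* and *srb2∆* libraries than in any *mig1∆* or wild-type library. The median over all tested genes ranged only between 35.7 and 38.4 RPKM over the 8 libraries. In rank among tested genes, the median cytosolic gene was at percentile 89.2 in *sin3∆*, 89.9 in *srb2∆*, 79.2 in *mig1∆* and 77.7 in the wild type, and the median mitochondrial gene at percentile 19.5 in *sin3∆*, 20.4 in *srb2∆*, 37.3 in *mig1∆* and 30.0 in the wild type. The 22 cytosolic genes took 0.452% of the summed RPKM in *sin3∆*, 0.531% in *srb2∆*, 0.337% in *mig1∆* and 0.310% in the wild type. Without the ribosomal protein genes in the sum, these shares were 0.767% in *sin3∆*, 0.922% in *srb2∆*, 0.449% in *mig1∆* and 0.391% in the wild type. The 14 mitochondrial genes took 0.0191% of the full sum in *sin3∆*, 0.0166% in *srb2∆*, 0.0404% in *mig1∆* and 0.0329% in the wild type. The difference of the class means on the log2(RPKM + 1) scale was 3.71 ± 0.07 in *sin3∆*, 4.04 ± 0.04 in *srb2∆*, 2.23 ± 0.03 in *mig1∆* and 2.39 ± 0.07 in the wild type (SD, n = 2 each). It exceeded that of the wild type by 1.32 in *sin3∆* and 1.65 in *srb2∆*, and the value in *mig1∆* minus that in the wild type was -0.16, against a pooled SD of 0.055 between libraries of a strain.

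**Figure D1:**
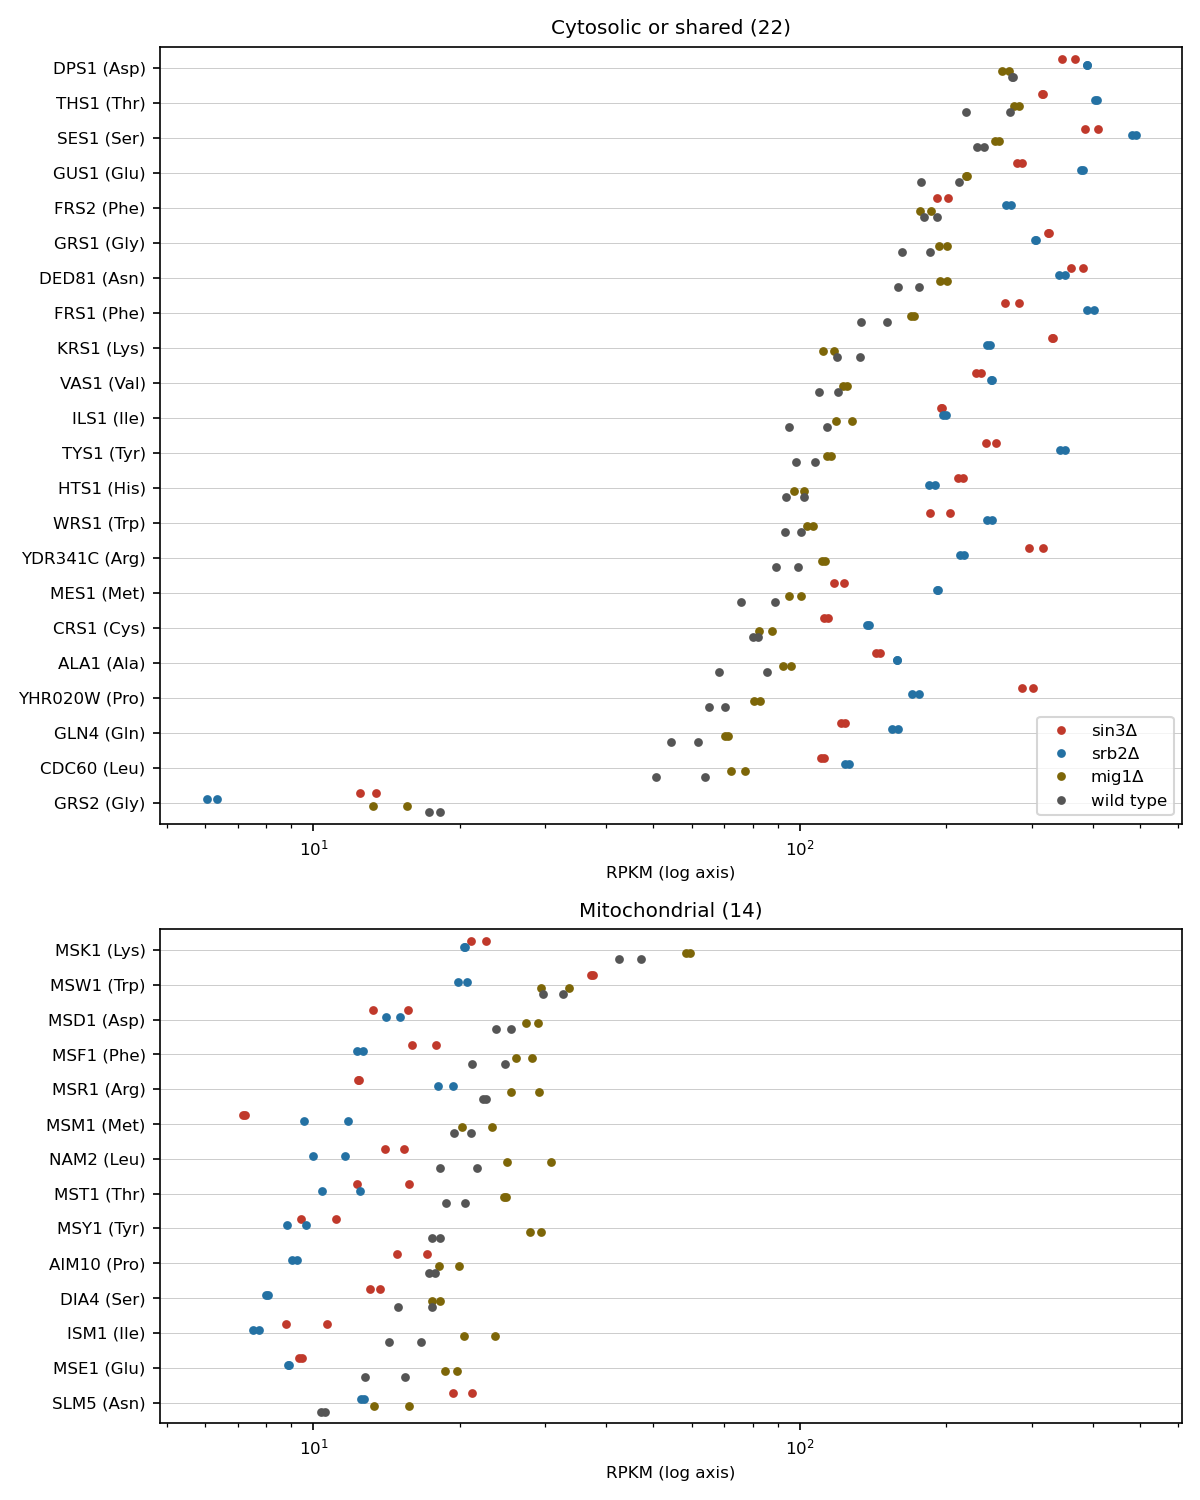
RPKM on a log axis for each of the 36 genes in the 8 libraries, with 1 point per library and strains offset downward in the order *sin3∆*, *srb2∆*, *mig1∆*, wild type; amino acids are given in brackets and genes run from the highest to the lowest wild-type mean within each class. The *sin3∆* and *srb2∆* points sit to the right of the wild type for the cytosolic genes other than *GRS2*, and mostly to its left for the mitochondrial genes, with *SLM5* to the right in all 3 deletions.

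Within the wild type the cytosolic genes other than *GRS2* spanned from 50.5 RPKM for *CDC60*, the leucyl-tRNA synthetase gene, to 274 RPKM for *DPS1*, the aspartyl-tRNA synthetase gene. *DPS1* (YLL018C), *THS1* (YIL078W) for threonine and *SES1* for serine were the 3 highest, with means of 273 ± 1.27, 245 ± 35.3 and 236 ± 5.55 RPKM (SD, n = 2 each). Both *DPS1* libraries lay above the others, and the values of *THS1* and *SES1* overlapped. The mitochondrial genes spanned from 10.4 RPKM for *SLM5*, the asparaginyl enzyme, to 47.2 RPKM for *MSK1*, the lysyl enzyme. *MSK1* had a mean of 44.9 ± 3.31 RPKM and the next, *MSW1* for tryptophan, one of 31.1 ± 2.05 RPKM (SD, n = 2 each), and their libraries did not overlap. The lowest cytosolic gene, *GRS2*, had 18.2 and 17.3 RPKM in the wild type and lay within the range of the mitochondrial class. In *sin3∆* the cytosolic genes other than *GRS2* began at 110.4 RPKM and the mitochondrial genes ended at 37.6 RPKM, in *srb2∆* at 124 and 20.7 RPKM, in *mig1∆* at 70.3 and 59.5 RPKM, and in the wild type at 50.5 and 47.2 RPKM.

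For the comparisons, values were taken as log2(RPKM + 1) and the 4 strains were fitted together in limma, which estimates a spread per gene and draws it towards the spread of genes of similar level. A change counted as called when it was 2-fold or more with a Benjamini-Hochberg adjusted p, over the 5628 genes, of no more than 0.05. Fold changes are on the log2(RPKM + 1) scale, which understates the change of low genes. The 3 comparisons with the wild type share its 2 libraries.

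Some cytosolic synthetase genes rose in *sin3∆*, and the prolyl gene *YHR020W* rose furthest. Of 22, 8 were called higher and 0 lower, where 17.7% of all tested genes were called higher and 12.2% lower. These were *YHR020W* for proline, *YDR341C* for arginine, *KRS1* for lysine, *TYS1* for tyrosine, *DED81* for asparagine, *HTS1* for histidine, *GLN4* for glutamine and *VAS1* for valine. The median log2 fold change of the 22 was 0.93, beside 0.01 over all tested genes. *YHR020W* had 286 and 302 RPKM in *sin3∆*, 175 and 169.9 RPKM in *srb2∆*, 80.6 and 83.0 RPKM in *mig1∆*, against 70.2 and 65.2 RPKM in the wild type. Both *sin3∆* libraries were above every other library, and the 4 strains did not overlap. Its log2 fold change was 2.10 ± 0.07 (SE, limma adjusted p = 3.6e-07), a 4.30-fold rise. *YDR341C* had 296 and 316 RPKM in *sin3∆*, 218 and 214 RPKM in *srb2∆*, 111 and 113 RPKM in *mig1∆*, against 99.4 and 89.4 RPKM in the wild type. This gene had its highest values in *sin3∆* as well, with a log2 fold change of 1.69 ± 0.07 (SE, limma adjusted p = 1.4e-06). *KRS1* (YDR037W) had 331 and 329.8 RPKM in *sin3∆*, 242 and 246 RPKM in *srb2∆*, 112 and 118 RPKM in *mig1∆*, against 133 and 119 RPKM in the wild type. It rose by 1.39 ± 0.07 (SE, limma adjusted p = 2.9e-06) on the log2 scale in *sin3∆*, while its *mig1∆* values lay below those of the wild type.

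*HTS1* (YPR033C) had 212 and 217 RPKM in *sin3∆*, 185 and 189 RPKM in *srb2∆*, 102 and 97.5 RPKM in *mig1∆*, against 102 and 93.7 RPKM in the wild type. *HTS1* supplies both cytosol and mitochondria from a single gene, and rose by 1.12 ± 0.07 (SE, limma adjusted p = 5.4e-06) on the log2 scale in *sin3∆*. *DED81* (YHR019C) had 362 and 382 RPKM in *sin3∆*, 351 and 341 RPKM in *srb2∆*, 195 and 201 RPKM in *mig1∆*, against 176 and 159 RPKM in the wild type. *GLN4* (YOR168W) had 124 and 121 RPKM in *sin3∆*, 159 and 155 RPKM in *srb2∆*, 71.2 and 70.3 RPKM in *mig1∆*, against 61.8 and 54.4 RPKM in the wild type. The *sin3∆* libraries of *DED81* and *GLN4* lay above those of the wild type without overlap, with log2 fold changes of 1.15 ± 0.07 (SE, limma adjusted p = 6.8e-06) and 1.07 ± 0.08 (SE, limma adjusted p = 1.2e-05). *VAS1* (YGR094W) had 229.9 and 236 RPKM in *sin3∆*, 248 and 247 RPKM in *srb2∆*, 125 and 123 RPKM in *mig1∆*, against 119.7 and 109 RPKM in the wild type. *VAS1*, another gene that serves both compartments, was the closest to the threshold among the 8, with a log2 fold change of 1.02 ± 0.07 (SE, limma adjusted p = 8.2e-06). Just under the threshold were *WRS1* for tryptophan at 0.99, *CDC60* at 0.96, *FRS1* for the beta subunit of the phenylalanyl enzyme at 0.94, *ALA1* for alanine and *ILS1* (YBL076C) for isoleucine at 0.91 each and *GRS1* for glycine at 0.90. At an adjusted p of at most 0.05 and any fold, a rule added after the data had been seen, 20 of the 22 were higher and 1, *GRS2*, lower in *sin3∆*, where 38.4% of tested genes were higher and 35.6% lower. The exception was *FRS2*, with a log2 fold change of 0.08 ± 0.07 (SE, limma adjusted p = 0.3). Without 1 of the wild-type libraries, replicate 3, *GLN4* and *VAS1* dropped under the threshold at 0.98 and 0.95 and *WRS1* passed it at 1.05, and without the other, replicate 2, *ALA1*, *ILS1*, *CDC60* and *FRS1* passed it at 1.07, 1.04, 1.12 and 1.03.

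In *srb2∆*, 12 of the 22 cytosolic genes were called higher and 1 lower, where 15.0% of all tested genes were higher and 14.9% lower. The 12 were *TYS1*, *FRS1*, *GLN4*, *YHR020W*, *WRS1*, *MES1*, *YDR341C*, *CDC60*, *VAS1*, *DED81*, *ALA1* and *SES1*, and the lower gene was *GRS2*. The median log2 fold change was 1.04, beside -0.01 over all tested genes. *TYS1* (YGR185C) had 241 and 253 RPKM in *sin3∆*, 350.4 and 343 RPKM in *srb2∆*, 114 and 116 RPKM in *mig1∆*, against 98.0 and 108 RPKM in the wild type. The tyrosyl gene had the largest rise in *srb2∆*, with a log2 fold change of 1.75 ± 0.07 (SE, limma adjusted p = 7.9e-07), and one of 1.26 ± 0.07 (SE, limma adjusted p = 3.5e-06) in *sin3∆*. *MES1* (YGR264C) had 118 and 123 RPKM in *sin3∆*, 192 and 192 RPKM in *srb2∆*, 101 and 95.2 RPKM in *mig1∆*, against 88.8 and 75.7 RPKM in the wild type. *MES1* encodes the methionyl enzyme, which binds the cofactor Arc1p together with the glutamyl enzyme, and had a log2 fold change of 1.22 ± 0.09 (SE, limma adjusted p = 1.2e-05) in *srb2∆*, while the value of 0.55 in *sin3∆* was under the threshold. *WRS1* (YOL097C) had 185 and 203 RPKM in *sin3∆*, 248 and 242 RPKM in *srb2∆*, 103 and 107 RPKM in *mig1∆*, against 93.4 and 101 RPKM in the wild type. The *WRS1* libraries of *srb2∆* were the highest of the 8, at a log2 fold change of 1.33 ± 0.07 (SE, limma adjusted p = 3.5e-06).

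*SES1* (YDR023W) had 386 and 410.1 RPKM in *sin3∆*, 489.9 and 482 RPKM in *srb2∆*, 257 and 252 RPKM in *mig1∆*, against 239 and 232 RPKM in the wild type. *SES1* was the most abundant synthetase transcript of *srb2∆*, with a log2 fold change of 1.04 ± 0.06 (SE, limma adjusted p = 5.9e-06). *ALA1* (YOR335C) had 146 and 144 RPKM in *sin3∆*, 159 and 158 RPKM in *srb2∆*, 95.8 and 92.3 RPKM in *mig1∆*, against 85.6 and 68.2 RPKM in the wild type. *CDC60* (YPL160W) had 110.4 and 112 RPKM in *sin3∆*, 124 and 126 RPKM in *srb2∆*, 77.0 and 72.1 RPKM in *mig1∆*, against 63.9 and 50.5 RPKM in the wild type. In both genes the *srb2∆* libraries were the highest and the wild-type libraries the lowest of the 8, and the 2 wild-type libraries differed from each other more than those of any other strain. Their log2 fold changes were 1.04 ± 0.10 (SE, limma adjusted p = 6.8e-05) and 1.12 ± 0.11 (SE, limma adjusted p = 5.7e-05). For genes already shown, the log2 fold changes in *srb2∆* were 1.34 for *YHR020W*, 1.19 for *YDR341C*, 1.42 for *GLN4*, 1.11 for *VAS1* and 1.05 for *DED81*, all called by limma. Under the threshold were *GUS1* (YGL245W) for glutamate at 0.96, *KRS1* at 0.95, *HTS1* and *ILS1* at 0.93 each, *GRS1* at 0.81, *CRS1* (YNL247W) for cysteine at 0.76, *THS1* at 0.74, *FRS2* at 0.53 and *DPS1* at 0.51. At any fold, 21 of 22 were higher and 1 lower in *srb2∆*, where 35.5% of tested genes were higher and 36.3% lower. Without wild-type replicate 3, *ALA1*, *DED81* and *CDC60* dropped under the threshold at 0.88, 0.98 and 0.96, and without wild-type replicate 2 *GUS1*, *ILS1* and *KRS1* passed it at 1.09, 1.06 and 1.03. Scaled to the summed RPKM without ribosomal protein genes, 12 cytosolic genes were higher and 1 mitochondrial gene lower in *sin3∆*. In *srb2∆*, 17 cytosolic genes were higher and only *GRS2* lower under this scaling. It also raised the median log2 fold change over all tested genes, from 0.01 to 0.10 in *sin3∆* and from -0.01 to 0.20 in *srb2∆*. The larger counts thus came with an upward shift over all tested genes, whose part in them was not tested.

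**Figure D2:**
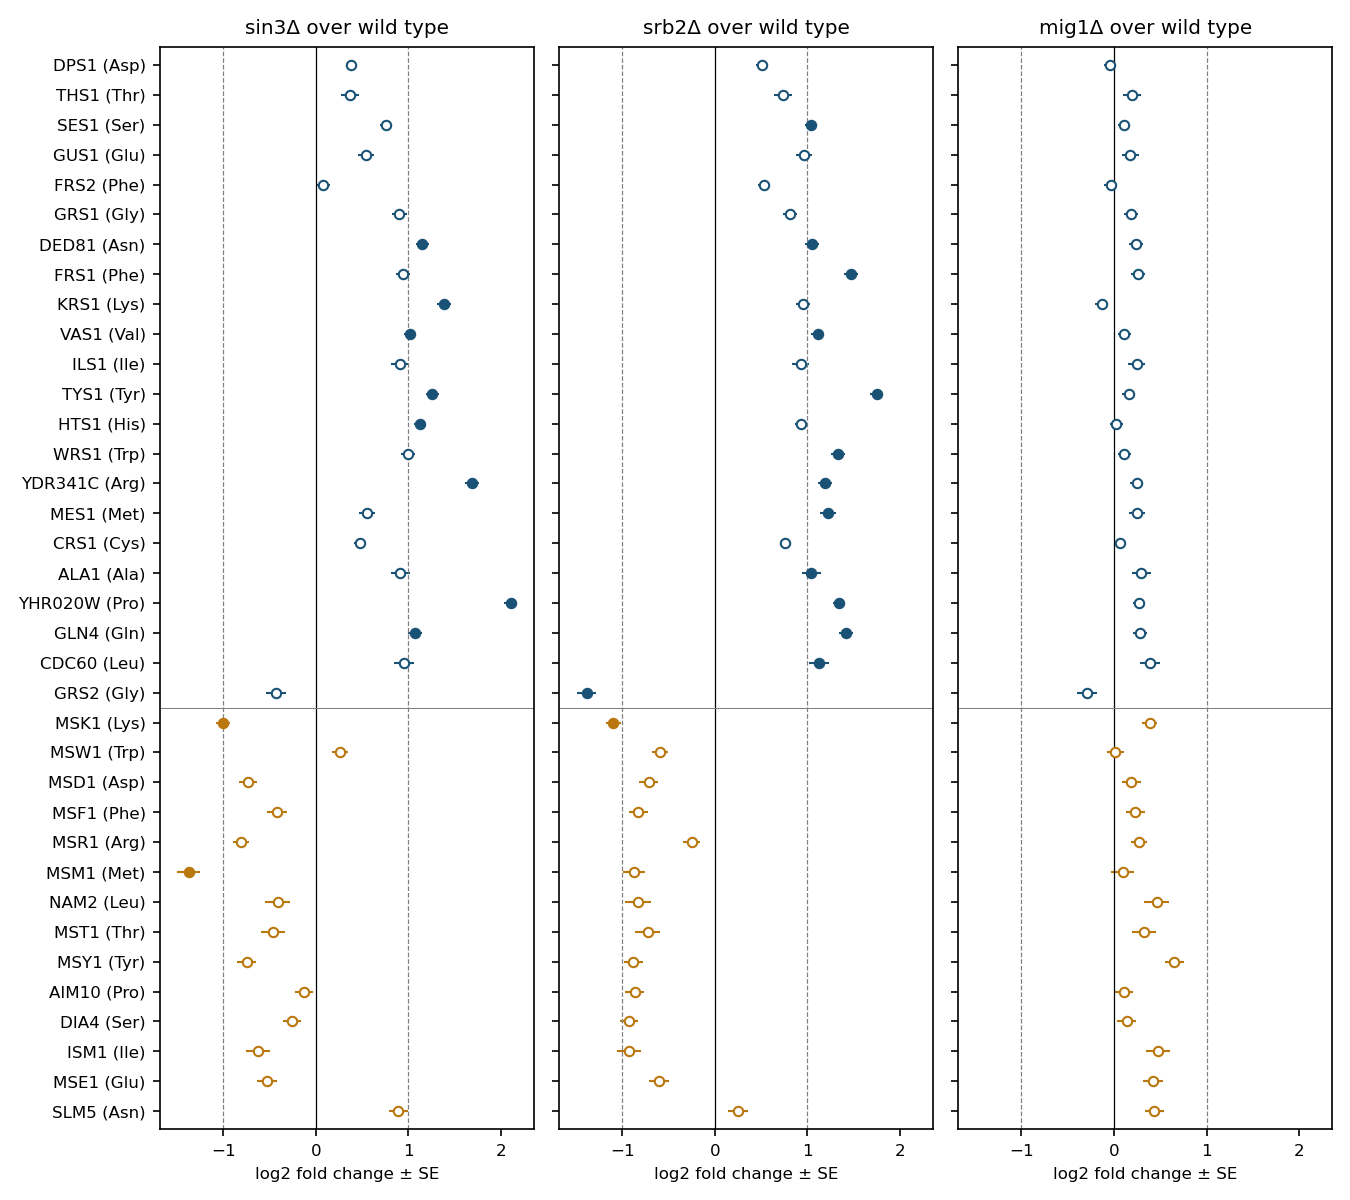
Log2 fold change of each gene over the wild type on the log2(RPKM + 1) scale, with its standard error from limma as a horizontal bar, in *sin3∆*, *srb2∆* and *mig1∆* from left to right; blue points are the 22 cytosolic or shared genes, orange points the 14 mitochondrial genes, filled points are called and dashed lines mark a 2-fold change. Cytosolic points lie right of 0 in *sin3∆* and *srb2∆* except *GRS2*, most mitochondrial points lie left of 0 there, and no point is filled in *mig1∆*.

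The 2 glycyl genes went apart in *sin3∆* and *srb2∆*. *GRS1* encodes the glycyl enzyme of both compartments, and *GRS2* its paralog, which is not needed for growth under usual conditions. *GRS1* (YBR121C) had 324 and 325 RPKM in *sin3∆*, 306 and 304 RPKM in *srb2∆*, 193 and 201 RPKM in *mig1∆*, against 185 and 162 RPKM in the wild type. *GRS2* (YPR081C) had 12.5 and 13.5 RPKM in *sin3∆*, 6.33 and 6.04 RPKM in *srb2∆*, 15.6 and 13.3 RPKM in *mig1∆*, against 18.2 and 17.3 RPKM in the wild type. *GRS1* was higher and *GRS2* lower in both *sin3∆* and *srb2∆* libraries than in those of the wild type. *GRS2* fell by 1.39 ± 0.11 on the log2 scale in *srb2∆* (SE, limma adjusted p = 1.6e-05), a 2.61-fold fall. Its log2 fold change of -0.43 ± 0.11 (SE, limma adjusted p = 0.0073) in *sin3∆* was under the threshold. The ratio of *GRS1* to *GRS2* was 26.0 and 24.1 in *sin3∆*, 48.3 and 50.4 in *srb2∆*, 12.4 and 15.1 in *mig1∆*, and 10.1 and 9.35 in the wild type. It was thus also above the wild type in *mig1∆*, by less, and neither gene passed an adjusted p of 0.05 by limma there. The coding sequences of the pair have 64.4% of aligned bases in common, with a longest shared run of 17 bases.

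The phenylalanyl enzyme of the cytosol is a tetramer of alpha and beta subunits, and its 2 genes did not keep their ratio. *FRS1* (YLR060W) had 265 and 283 RPKM in *sin3∆*, 402 and 389 RPKM in *srb2∆*, 172 and 169 RPKM in *mig1∆*, against 151 and 134 RPKM in the wild type. *FRS2* (YFL022C) had 192 and 202 RPKM in *sin3∆*, 265 and 272 RPKM in *srb2∆*, 186 and 176 RPKM in *mig1∆*, against 192 and 180.1 RPKM in the wild type. *FRS1*, for the beta subunit, was called higher in *srb2∆* with a log2 fold change of 1.47 ± 0.08 (SE, limma adjusted p = 2.9e-06), while *FRS2*, for the alpha subunit, had one of 0.53 ± 0.07 (SE, limma adjusted p = 2.7e-04). The ratio of *FRS1* to *FRS2* was 1.38 and 1.40 in *sin3∆*, 1.51 and 1.43 in *srb2∆*, 0.922 and 0.958 in *mig1∆*, and 0.788 and 0.743 in the wild type. It was above 1 in the *sin3∆* and *srb2∆* libraries and below 1 in the other 4. Its *mig1∆* values also lay above those of the wild type without overlap, by less.

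*YHR020W* and *DED81* are divergent neighbours on chromosome VIII and share the 437 bases between their start codons, at chrVIII:143559-143995 of R64. *DED81* was more abundant than *YHR020W* in every library, and the ratio of *YHR020W* to *DED81* was 0.791 and 0.790 in *sin3∆*, 0.4995 and 0.498 in *srb2∆*, 0.415 and 0.413 in *mig1∆*, and 0.400 and 0.410 in the wild type. Both genes rose in *sin3∆* and in *srb2∆*, and the ratio was highest in *sin3∆*.

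By structural class, the 10 cytosolic genes of class I enzymes, which carry a Rossmann fold, had 4 called higher in *sin3∆* and 7 in *srb2∆*, with median log2 fold changes of 0.97 in *sin3∆* and 1.16 in *srb2∆*. The 11 genes of class II other than *GRS2* had 4 called higher in *sin3∆* and 5 in *srb2∆*, with medians of 0.91 in *sin3∆* and 0.95 in *srb2∆*. The 6 genes of cytosolic or shared enzymes for amino acids with no separate mitochondrial gene here, *ALA1*, *CRS1*, *GLN4*, *GRS1*, *HTS1* and *VAS1*, had 3 called higher in each of the 2 strains, at medians of 0.97 in *sin3∆* and 0.99 in *srb2∆*. The 15 with a mitochondrial counterpart had 5 called higher in *sin3∆* and 9 in *srb2∆*, at medians of 0.94 in *sin3∆* and 1.05 in *srb2∆*. Beside these counts, 17.7% of all tested genes were called higher in *sin3∆* and 15.0% in *srb2∆*. These splits are given as counts and medians only, and a difference between them was not tested.

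Mitochondrial synthetase genes were mostly lower in *sin3∆* and *srb2∆*, but few reached a 2-fold change on the log2(RPKM + 1) scale, which understates changes of low genes. In *sin3∆*, 2 of 14 were called lower, *MSM1* and *MSK1*, and 0 higher, beside the 12.2% of all tested genes called lower and 17.7% called higher. In *srb2∆*, *MSK1* was called lower and 0 higher, beside 14.9% of all called lower and 15.0% higher. With a pseudocount of 0.1 in place of 1, *DIA4* and *ISM1* were also called lower in *srb2∆*, at -1.0026 and -1.0085. The median log2 fold change of the 14 was -0.50 in *sin3∆* and -0.83 in *srb2∆*. *MSM1* (YGR171C) had 7.23 and 7.16 RPKM in *sin3∆*, 9.55 and 11.8 RPKM in *srb2∆*, 23.3 and 20.2 RPKM in *mig1∆*, against 21.1 and 19.5 RPKM in the wild type. *MSM1* encodes the mitochondrial methionyl enzyme, and its *sin3∆* libraries were the lowest of the 8. It fell by 1.37 ± 0.12 on the log2 scale in *sin3∆* (SE, limma adjusted p = 3.7e-05), and had a log2 fold change of -0.87 ± 0.12 (SE, limma adjusted p = 4.3e-04) in *srb2∆*. *MSK1* (YNL073W) had 21.1 and 22.6 RPKM in *sin3∆*, 20.4 and 20.5 RPKM in *srb2∆*, 59.5 and 58.2 RPKM in *mig1∆*, against 47.2 and 42.5 RPKM in the wild type. *MSK1* was the most abundant of its class in the wild type and in *mig1∆*, and its libraries of *sin3∆* and *srb2∆* were all below those of the other strains. It fell by 1.004 ± 0.08 (SE, limma adjusted p = 2.0e-05) in *sin3∆* and by 1.10 ± 0.08 (SE, limma adjusted p = 1.2e-05) in *srb2∆* on the log2 scale, both near the threshold. Without wild-type replicate 2 or without *sin3∆* replicate 1, *MSK1* dropped under the threshold in *sin3∆* at -0.93 and -0.96. In *srb2∆*, *DIA4* for serine passed it at -1.04 without wild-type replicate 2, *ISM1* for isoleucine at -1.03 without wild-type replicate 3 and *MSM1* at -1.01 without *srb2∆* replicate 3.

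At any fold, 11 of the 14 mitochondrial genes were lower and 2 higher in *sin3∆*, and 13 lower and 0 higher in *srb2∆*, by the limma test at an adjusted p of at most 0.05, where 35.6% of tested genes were lower and 38.4% higher in *sin3∆* and 36.3% lower and 35.5% higher in *srb2∆*. The 2 higher in *sin3∆* were *SLM5* and *MSW1*, and *AIM10* (YER087W), the prolyl gene, did not pass at -0.13 ± 0.10 (SE, limma adjusted p = 0.26). *SLM5* (YCR024C) had 21.2 and 19.3 RPKM in *sin3∆*, 12.5 and 12.7 RPKM in *srb2∆*, 15.8 and 13.3 RPKM in *mig1∆*, against 10.4 and 10.6 RPKM in the wild type. *SLM5*, the lowest of the class in the wild type, was higher in every library of the 3 deletion strains than in the wild type. Its log2 fold change was 0.89 ± 0.10 (SE, limma adjusted p = 1.5e-04) in *sin3∆*, and the value of 0.25 ± 0.10 (SE, limma adjusted p = 0.062) in *srb2∆* was the only one of the class there that did not pass. *MSW1* (YDR268W) had 37.2 and 37.6 RPKM in *sin3∆*, 19.8 and 20.7 RPKM in *srb2∆*, 29.4 and 33.6 RPKM in *mig1∆*, against 29.6 and 32.5 RPKM in the wild type. *MSW1* was highest in *sin3∆* and lowest in *srb2∆*. *MSR1* (YHR091C) had 12.4 and 12.4 RPKM in *sin3∆*, 18.1 and 19.4 RPKM in *srb2∆*, 29.1 and 25.5 RPKM in *mig1∆*, against 22.6 and 22.3 RPKM in the wild type. *MSR1*, the mitochondrial counterpart of *YDR341C*, had log2 fold changes of -0.81 ± 0.09 (SE, limma adjusted p = 1.2e-04) in *sin3∆* and -0.25 ± 0.09 (SE, limma adjusted p = 0.036) in *srb2∆*. Its coding sequence has 64.002% of aligned bases in common with that of *YDR341C*, with a longest shared run of 15 bases. The other genes of the class lay between -0.75 and -0.13 in *sin3∆* and between -0.93 and -0.60 in *srb2∆* on the log2 scale, and are *MSD1* (YPL104W) for aspartate, *MSE1* (YOL033W) for glutamate, *MSF1* (YPR047W) for phenylalanine, *NAM2* (YLR382C) for leucine, *MST1* (YKL194C) for threonine, *MSY1* for tyrosine, *DIA4* (YHR011W), *ISM1* (YPL040C) and *AIM10*.

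Set amino acid by amino acid, the ratio of the cytosolic to the mitochondrial transcript was higher in *sin3∆* and *srb2∆* than in the wild type for each of the 15 pairs, in which *FRS1* and *FRS2* are both set against *MSF1*. In all 15 pairs the libraries did not overlap with those of the wild type in *sin3∆*, nor in *srb2∆*. Of all tested genes taken singly, the libraries did not overlap with those of the wild type for 86.1% in *sin3∆* and 84.7% in *srb2∆*, in either direction. The median ratio over pairs was 18.5 in *sin3∆*, 26.0 in *srb2∆*, 5.63 in *mig1∆* and 6.20 in the wild type. Changes given below for single pairs are not logs of these RPKM ratios. They are differences between the 2 genes on the log2(RPKM + 1) scale, as strain mean minus wild-type mean. For lysine, *KRS1* over *MSK1* was 15.7 and 14.6 in *sin3∆*, 11.89 and 12.04 in *srb2∆*, 1.88 and 2.02 in *mig1∆*, and 2.82 and 2.80 in the wild type. This was the lowest mean ratio of the 15 in the wild type, where it overlapped with that of leucine, and in *mig1∆*. For arginine, *YDR341C* over *MSR1* was 23.8 and 25.6 in *sin3∆*, 12.1 and 11.0 in *srb2∆*, 3.81 and 4.42 in *mig1∆*, and 4.40 and 4.01 in the wild type, the widest change in *sin3∆* at 2.50 on the log2 scale. For tyrosine, *TYS1* over *MSY1* was 21.7 and 26.9 in *sin3∆*, 39.8 and 35.5 in *srb2∆*, 4.08 and 3.94 in *mig1∆*, and 5.59 and 5.91 in the wild type, the widest change in *srb2∆* at 2.63. For asparagine, *DED81* over *SLM5* was 17.0 and 19.8 in *sin3∆*, 28.0 and 26.8 in *srb2∆*, 12.3 and 15.1 in *mig1∆*, and 17.0 and 15.0 in the wild type, and this pair had the smallest change in both strains, at 0.26 in *sin3∆* and 0.80 in *srb2∆*. Its *sin3∆* and wild-type libraries were closest, at 17.05 against 16.96. In *mig1∆* the ratio was lower than in the wild type without overlap in 6 pairs, higher in 3, and overlapping in 6, where 51.8% of all tested genes taken singly did not overlap in either direction.

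**Figure D3:**
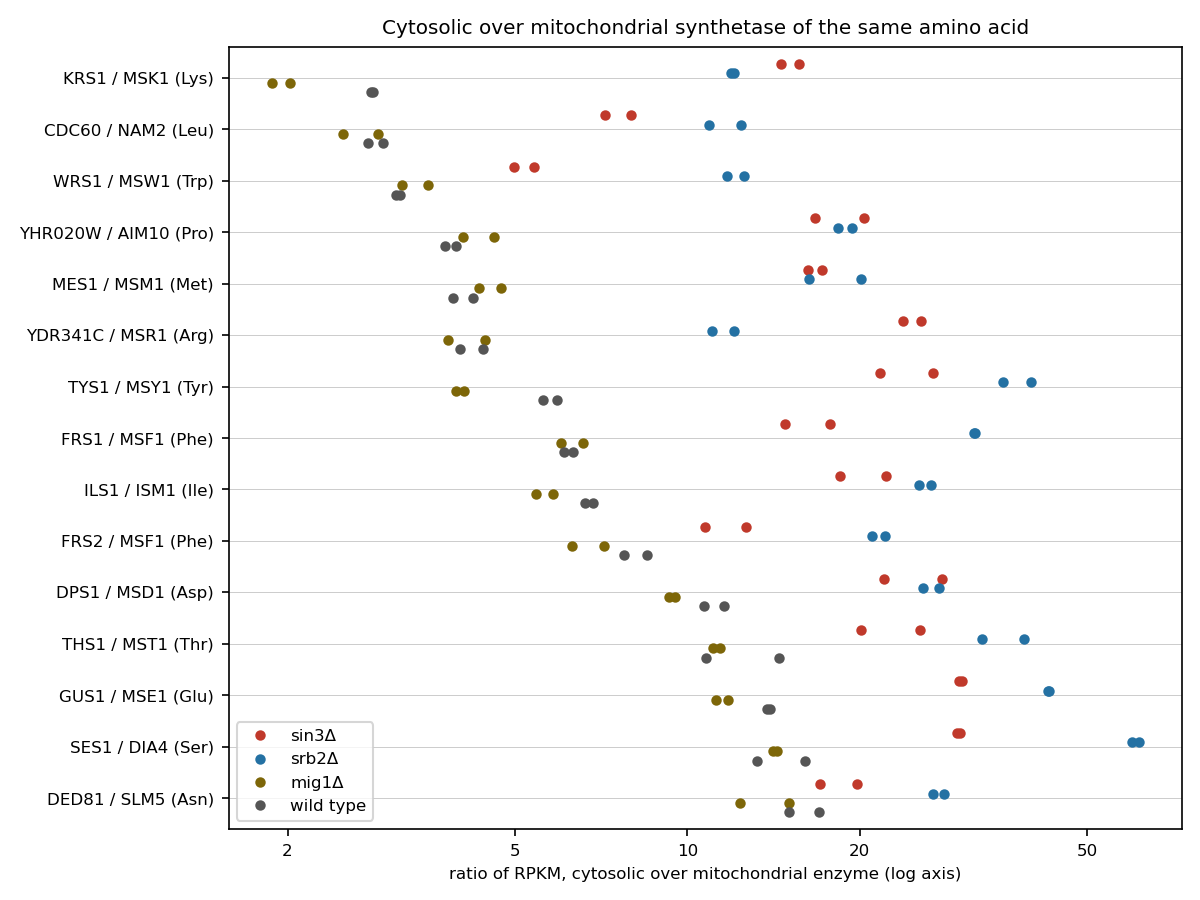
Ratio of RPKM of the cytosolic over the mitochondrial enzyme gene of the same amino acid on a log axis, with 1 point per library for the 15 pairs and strains offset downward in the order *sin3∆*, *srb2∆*, *mig1∆*, wild type. The *sin3∆* and *srb2∆* points lie to the right of the wild type in each pair, and the *mig1∆* points lie on either side of it.

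In *mig1∆* no synthetase gene was called in either direction, where 0.995% of all tested genes were higher and 0.657% lower. At an unadjusted p under 0.05 by limma there were 11 of the 22 cytosolic and 8 of the 14 mitochondrial genes, where 28.9% of all tested genes passed, and at an adjusted p of at most 0.05 and any fold 1 cytosolic and 4 mitochondrial genes, all higher, where 7.41% of tested genes were higher and 4.71% lower. The cytosolic gene was *YHR020W*, with a log2 fold change of 0.27 ± 0.07 (SE, limma adjusted p = 0.045). The mitochondrial genes were *MSY1*, *SLM5*, *MSE1* and *MSK1*. *MSY1* (YPL097W) had 11.1 and 9.41 RPKM in *sin3∆*, 8.81 and 9.66 RPKM in *srb2∆*, 27.9 and 29.4 RPKM in *mig1∆*, against 17.5 and 18.2 RPKM in the wild type. The *mig1∆* libraries of *MSY1* lay above all others, with a log2 fold change of 0.65 ± 0.10 (SE, limma adjusted p = 0.0092), the largest of the 36 in this strain. *MSK1* had a log2 fold change of 0.39 ± 0.08 (SE, limma adjusted p = 0.022), *SLM5* of 0.44 ± 0.10 (SE, limma adjusted p = 0.037) and *MSE1* of 0.42 ± 0.11 (SE, limma adjusted p = 0.045). All 14 mitochondrial values were positive, with a median of 0.30, although that of *MSW1* was -0.02 with quantile normalization. Of the 22 cytosolic values 18 were positive, with a median of 0.18, beside 0.03 over all tested genes. *DPS1*, *FRS2*, *KRS1* and *GRS2* had the 4 negative values, and those of *DPS1* and *FRS2* turned positive when scaled without ribosomal protein genes.

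Set directly against *srb2∆*, *sin3∆* had 0 of the 36 genes called, where 11.9% of tested genes were higher and 2.95% lower. At an unadjusted p under 0.05 by limma there were 15 of the 22 cytosolic and 9 of the 14 mitochondrial genes, near the 63.0% of all tested genes that passed. At an adjusted p of at most 0.05 and any fold, *sin3∆* had 5 cytosolic genes higher and 10 lower and 6 mitochondrial genes higher and 2 lower, where 30.9% of tested genes were higher and 27.9% lower. The cytosolic genes higher in *sin3∆* were *GRS2* at 0.96 ± 0.11 (SE, limma adjusted p = 2.2e-04), *YHR020W* at 0.76 ± 0.07 (SE, limma adjusted p = 8.1e-05), *YDR341C* at 0.50, *KRS1* at 0.43 and *HTS1* at 0.20. The lowest values were those of *MES1* at -0.67 ± 0.09 (SE, limma adjusted p = 4.9e-04), *FRS1* at -0.53 and *TYS1* at -0.49. Among mitochondrial genes *MSW1* was furthest up at 0.85 ± 0.09 (SE, limma adjusted p = 1.7e-04), followed by *AIM10* at 0.74, *DIA4* at 0.67 and *SLM5* at 0.64, and *MSR1* and *MSM1* were lower at -0.56 and -0.50. For proline and arginine the cytosolic gene was thus higher in *sin3∆*, and for methionine both the cytosolic and the mitochondrial gene were lower. *GRS2* was just over 2-fold at 1.01 without *sin3∆* replicate 1. The medians were -0.15 for the cytosolic and 0.29 for the mitochondrial genes, and quantile normalization, which moved the median of all genes to -0.12, gave -0.22 and -0.06.

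**Figure D4:**
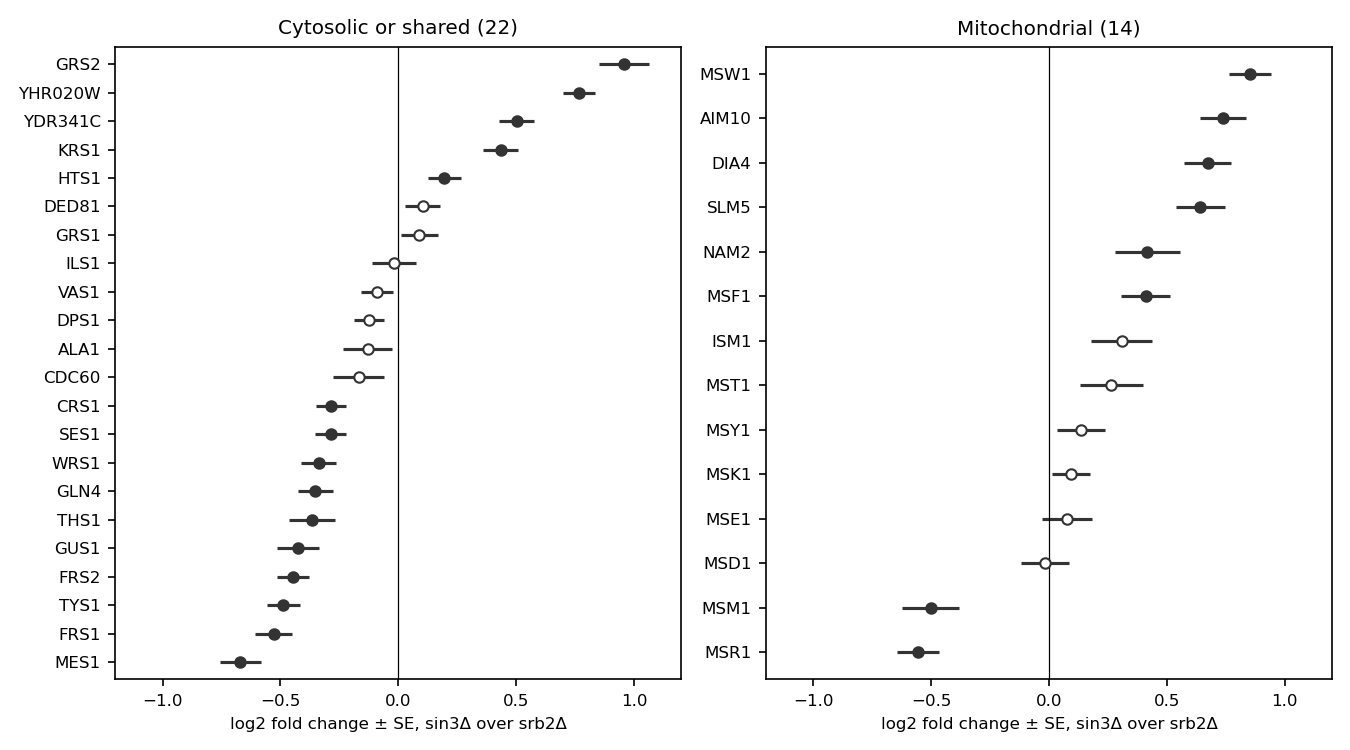
Log2 fold change of *sin3∆* over *srb2∆* on the log2(RPKM + 1) scale with its standard error from limma, for the 22 cytosolic or shared genes on the left and the 14 mitochondrial genes on the right, sorted by value; filled points have an adjusted p of at most 0.05 at any fold. *GRS2* at 0.96 and *MSW1* at 0.85 are the highest, *MES1* at -0.67 and *MSR1* at -0.56 the lowest of their panels, and none reaches 1 in either direction.

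Of 7 other genes of tRNA charging, 1 was called higher and 0 lower in *sin3∆*, and likewise 1 and 0 in *srb2∆*, which is near the 17.7% of all tested genes called higher in *sin3∆* and 15.0% in *srb2∆*. Their median log2 fold changes were 0.04 in *sin3∆* and -0.76 in *srb2∆*. *ARC1*, whose product is a cofactor of the methionyl and glutamyl enzymes, had 467 and 464 RPKM in *sin3∆*, 712 and 670.4 RPKM in *srb2∆*, 295 and 312 RPKM in *mig1∆*, against 323 and 344 RPKM in the wild type. It was called higher in *srb2∆*, at a log2 fold change of 1.05 ± 0.07 (SE, limma adjusted p = 9.1e-06), with 0.48 in *sin3∆*. *FMT1*, for the mitochondrial formyltransferase of initiator methionyl-tRNA, had 11.9 and 9.66 RPKM in *sin3∆*, 2.09 and 2.21 RPKM in *srb2∆*, 6.35 and 4.95 RPKM in *mig1∆*, against 3.86 and 4.86 RPKM in the wild type. It was called higher in *sin3∆*, at 1.13 ± 0.17 (SE, limma adjusted p = 6.3e-04), had -0.76 in *srb2∆*, and was called higher in *sin3∆* than in *srb2∆* at 1.89. *PET112*, *HER2* and *GTF1* encode the amidotransferase that makes glutaminyl-tRNA in mitochondria, which have no glutaminyl enzyme of their own, and none of the 3 was called in any deletion. Their log2 fold changes in *srb2∆* were -0.80, -0.82 and -0.79. *DTD1*, for a deacylase that clears mischarged tRNA, and *CCA1*, for the enzyme that adds the CCA end, were not called either, at 0.51 and 0.58 in *srb2∆*.

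Of 33 genes for tRNA-modifying enzymes, 8 were called higher in *sin3∆* and 14 in *srb2∆*, with 0 lower in both, where 17.7% of all tested genes were called higher in *sin3∆* and 15.0% in *srb2∆*. Their median log2 fold changes were 0.75 in *sin3∆* and 0.89 in *srb2∆*. The largest in *srb2∆* were *TRM11*, a tRNA guanosine methyltransferase subunit, at 2.21 in *sin3∆* and 1.95 in *srb2∆*, and *DUS3*, a dihydrouridine synthase, at 1.59 in *sin3∆* and 1.95 in *srb2∆*. Of 8 genes for tRNA splicing and export, *SEN34*, a subunit of the splicing endonuclease, and *TRL1*, the tRNA ligase, were called higher in both strains, at 1.88 and 1.26 in *sin3∆* and at 1.57 and 1.04 in *srb2∆*, and 0 were lower. Beside these stand the same 17.7% and 15.0% of all tested genes called higher. The medians of the 8 were only 0.03 in *sin3∆* and 0.17 in *srb2∆*. Their values ran from -0.93 to 1.88 in *sin3∆* and from -0.47 to 1.57 in *srb2∆*. Of 9 genes for mitochondrial translation and its tRNA modification, 3 were lower and 2 higher in *sin3∆*, and 1 was lower and 0 higher in *srb2∆*, where 12.2% of all tested genes were called lower and 17.7% higher in *sin3∆*, and 14.9% lower and 15.0% higher in *srb2∆*. Those lower in *sin3∆* were *IFM1*, the initiation factor, at -1.25, *RRF1*, the ribosome recycling factor, at -1.09 and *MSS1*, a modifier of mitochondrial tRNAs, at -1.06. Those higher were *MEF2*, an elongation factor G homologue, at 1.42 and *SLM3*, a tRNA thiouridylase, at 1.02. *RRF1* was the gene lower in *srb2∆*, at -1.08. In *mig1∆* none of these genes or of the charging factors was called, where only 0.995% of all tested genes were higher and 0.657% lower. The medians there were 0.11 for modification, 0.02 for splicing and export and 0.36 for mitochondrial translation. At an adjusted p of at most 0.05 by limma and any fold, 5 of 9 for mitochondrial translation and 3 of 33 for modification passed. So did 1 of 8 for splicing and export and 1 of 7 for charging, where 7.41% of tested genes were higher and 4.71% lower.

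The bases upstream of the start codons were searched for short motifs. In the 300 bases before the start codon, read from the R64 reference and not from ScY01a, AAAAATTT on either strand was found in 18 of 22 cytosolic genes, in 0 of 14 mitochondrial genes and in 15.1% of 6001 protein-coding genes. These letters are the core of the ribosomal RNA processing element, a motif known from genes of ribosome synthesis. The cytosolic genes without it were *ALA1*, *DPS1*, *GRS2* and *KRS1*. TGACTC on either strand, the core of the site known for Gcn4p, was found in 9 of 22 cytosolic genes, in 1 of 14 mitochondrial genes, which was *MSW1*, and in 7.77% of all. CCAAT, known as the site of the Hap complex that activates respiratory genes, was found in 8 of 22 and 5 of 14, beside 41.8% of all, and GATGAG, the core of the polymerase A and C box, in 5 of 22 and 1 of 14, beside 19.1% of all. None of these motifs contains another. The median A and T content of the windows was 65.7% for cytosolic, 67.7% for mitochondrial and 64.7% for all genes. The windows of *YHR020W* and *DED81* overlap, so their matches are not separate.

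The 18 cytosolic genes with AAAAATTT had median log2 fold changes of 0.95 in *sin3∆* and 1.08 in *srb2∆*, and the 4 without it 0.65 in *sin3∆* and 0.73 in *srb2∆*, with ranges that overlapped. The 9 with TGACTC had medians of 1.02 in *sin3∆* and 1.04 in *srb2∆*, and the 13 without it 0.90 in *sin3∆* and 1.04 in *srb2∆*. A difference between these groups was not tested. The windows of 6 genes are given to show the gene with the largest rise in *sin3∆*, that with the largest rise in *srb2∆*, the glycyl pair that went apart, the lysyl gene called in both strains and the mitochondrial gene with the highest fold change in *sin3∆*. Each is written 5′ to 3′ on the strand of its gene and ends at the base before the start codon, with matches to TGACTC or AAAAATTT, on either strand, in capitals.
YHR020W, chrVIII:143696-143995, plus strand: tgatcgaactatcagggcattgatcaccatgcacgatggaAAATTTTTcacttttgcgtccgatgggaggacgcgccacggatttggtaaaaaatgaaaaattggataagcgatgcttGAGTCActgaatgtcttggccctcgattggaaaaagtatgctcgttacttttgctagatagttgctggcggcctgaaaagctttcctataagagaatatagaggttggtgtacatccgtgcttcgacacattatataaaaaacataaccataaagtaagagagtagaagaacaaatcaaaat
TYS1, chrVII:867521-867820, minus strand: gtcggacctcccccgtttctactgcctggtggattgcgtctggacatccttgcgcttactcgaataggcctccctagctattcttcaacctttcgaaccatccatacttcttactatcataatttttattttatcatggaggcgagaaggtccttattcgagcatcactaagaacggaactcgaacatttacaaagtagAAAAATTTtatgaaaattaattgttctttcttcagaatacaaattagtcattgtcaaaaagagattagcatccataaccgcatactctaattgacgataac
GRS1, chrII:483368-483667, minus strand: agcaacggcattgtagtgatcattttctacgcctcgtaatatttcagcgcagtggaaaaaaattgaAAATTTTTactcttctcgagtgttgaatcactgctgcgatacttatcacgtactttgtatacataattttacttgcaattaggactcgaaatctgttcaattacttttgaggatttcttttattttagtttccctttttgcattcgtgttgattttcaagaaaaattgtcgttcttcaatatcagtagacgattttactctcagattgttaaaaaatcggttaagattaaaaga
GRS2, chrXVI:703971-704270, minus strand: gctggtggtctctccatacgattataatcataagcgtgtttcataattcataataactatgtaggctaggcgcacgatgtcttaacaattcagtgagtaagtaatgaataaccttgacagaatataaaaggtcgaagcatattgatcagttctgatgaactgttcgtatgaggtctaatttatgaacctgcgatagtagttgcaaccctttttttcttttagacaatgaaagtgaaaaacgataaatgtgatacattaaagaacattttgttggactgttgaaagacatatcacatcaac
MSK1, chrXIV:488086-488385, plus strand: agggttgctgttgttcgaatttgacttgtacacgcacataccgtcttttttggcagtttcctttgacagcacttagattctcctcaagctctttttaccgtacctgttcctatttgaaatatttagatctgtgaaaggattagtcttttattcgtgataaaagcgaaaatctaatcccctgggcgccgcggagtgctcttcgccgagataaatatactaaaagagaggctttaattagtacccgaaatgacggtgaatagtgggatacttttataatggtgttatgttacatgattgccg
SLM5, chrIII:162223-162522, minus strand: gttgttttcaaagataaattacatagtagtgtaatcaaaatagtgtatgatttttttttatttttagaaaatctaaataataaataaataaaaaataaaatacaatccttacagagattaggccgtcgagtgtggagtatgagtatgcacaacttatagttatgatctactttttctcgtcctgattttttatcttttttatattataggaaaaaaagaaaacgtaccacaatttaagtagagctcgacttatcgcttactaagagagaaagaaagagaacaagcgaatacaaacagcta
In *YHR020W* the match to TGACTC begins 182 bases and that to AAAAATTT 260 bases before the start codon, and both lie between this gene and *DED81*. *TYS1* and *GRS1* have a match to AAAAATTT alone, at 101 and 234 bases. *GRS2*, *MSK1* and *SLM5* have neither.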

How the data were processed

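RNA of 8 libraries, 2 for each of 4 strains, was sequenced as paired ends. Per the methods and the submitters' notes, the authors aligned reads to R64 with Bowtie2, estimated expression with RSEM and deposited RPKM values, and the table's name says that these were TMM-normalized. Read counts were not used here, so the depth behind a value is unknown and the precision is that of 2 libraries. The 3 comparison tables hold the authors' fold changes and p-values and were not used.

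Values became log2(RPKM + 1). The filter asked for 1 RPKM or more in 2 or more of 8 libraries, and the 4 strains were fitted with limma 3.58.1 (lmFit, eBayes with trend) in R 4.3.3. The test was also tried on simulated data. The Benjamini-Hochberg adjustment covered 5628 genes, and calls needed a 2-fold change and an adjusted p up to 0.05. Of 6103 gene IDs, 5977 matched the R64 table and 309 were at 0 in all libraries. Classes, ratios and lists were described without a test. All 36 members could be named. Values per library were given for those called against the wild type, for the glycyl, phenylalanyl and arginyl pairs, and, chosen after their values were seen, for *SLM5*, *MSW1* and *MSY1*. The members, the gene lists, the motifs and the printed windows were chosen with earlier results of these data known. Alternatives were median-ratio scaling, scaling without ribosomal protein genes, quantile normalization, no filter, pseudocounts of 0.1 and 5, limma without the trend, only the 2 strains compared, a replicate block for *srb2∆* and leaving out each library, and, added after the data had been seen, no fold threshold. Upstream windows and coding sequences came from the RefSeq genome and annotation of R64, and were handled with Biopython 1.88, Python 3.11.15 and pandas 2.3.3. Plots were drawn with matplotlib 3.10.9.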

Additional observations from a re-analysis of the deposited data

How the results depend on the processing

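Against the wild type, the counts of called cytosolic genes in *sin3∆* and *srb2∆* stayed within 1.5 times under each scaling, filter, pseudocount and left-out library tried, between 7 and 12 higher in *sin3∆* and between 9 and 17 higher in *srb2∆*. The counts over all tested genes, 17.7% higher in *sin3∆* and 15.0% in *srb2∆* in the main fit, also stayed within 1.5 times. *GRS2* was called lower in *srb2∆* in each of these settings. Counts of called mitochondrial genes were small and moved. In *sin3∆* 1 was lower, against 2, when scaled without ribosomal protein genes and with a pseudocount of 5, where *MSK1* was the gene lost, and 1 to 2 were lower with a library left out. In *srb2∆* 0 were lower, against 1, when scaled without ribosomal protein genes, with quantile normalization and with a pseudocount of 5, 3 were lower with a pseudocount of 0.1, and 1 to 2 with a library left out. In *sin3∆* against *srb2∆* 1 cytosolic gene, *GRS2*, was higher with a pseudocount of 0.1, and 0 to 1 with a library left out. *VAS1* in *sin3∆* was also under the threshold with median-ratio scaling at 0.99, quantile normalization at 0.97 and a pseudocount of 5 at 0.99. With no fold threshold, 20 cytosolic genes were higher and 1 lower and 2 mitochondrial higher and 11 lower in *sin3∆*, 21 cytosolic higher and 13 mitochondrial lower in *srb2∆*, 1 cytosolic and 4 mitochondrial higher in *mig1∆*, and 5 cytosolic higher and 10 lower and 6 mitochondrial higher and 2 lower in *sin3∆* against *srb2∆*. The shares of all tested genes higher and lower were then 38.4% and 35.6% in *sin3∆* and 35.5% and 36.3% in *srb2∆*. They were 7.41% and 4.71% in *mig1∆*, and 30.9% and 27.9% in *sin3∆* against *srb2∆*.

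The widening of the class difference relative to the wild type was 1.41 with quantile normalization and 1.21 with a pseudocount of 5 in *sin3∆*, and 1.51 with quantile normalization and 1.502 with a pseudocount of 5 in *srb2∆*. The class difference of *sin3∆* minus that of *srb2∆* was -0.33 and became -0.10 with quantile normalization. Scaling without ribosomal protein genes moved the median of all genes over the wild type to 0.10 in *sin3∆* and 0.20 in *srb2∆*. It moved that of *sin3∆* over *srb2∆* to -0.13, and the cause of the other changes was not tested.

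Values that changed sign were under the threshold in each setting. In *mig1∆* these were *DPS1* at 0.017 without ribosomal protein genes in the scaling and 0.018 with quantile normalization, *FRS2* at 0.027 with the first scaling and at -0.080 to 0.0088 with a library left out, *MSW1* at -0.021 with quantile normalization and -0.077 to 0.11 with a library left out, *HTS1* at -0.033 to 0.088 and *MSM1* at -0.0053 to 0.19 with a library left out. In *sin3∆* against *srb2∆*, scaling without ribosomal protein genes gave -0.040 for *DED81*, -0.054 for *GRS1*, -0.054 for *MSE1* and -0.044 for *MSK1*. Quantile normalization gave -0.40 for *MSE1*, -0.053 for *MSK1*, -0.057 for *MST1*, -0.30 for *MSY1* and -0.16 for *ISM1* there. *MSD1* was at -0.13 to 0.10 with a library left out.

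The labels of *srb2∆* and the wild type share replicate numbers 2 and 3. The deviations of same-numbered libraries correlated at 0.06 across 5628 genes and nothing in the labels pairs them, and with the replicate block 12 cytosolic genes were higher and 1 lower, and 0 mitochondrial genes higher and 1 lower, as without it. With 2 libraries per strain and no read counts, counting error could not be given, and changes near 2-fold moved across the threshold.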
